A study of Mus musculus with 6 samples.

Results

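The interferon response genes described here are 46 mouse genes chosen by name: every probe other than a control counted if its gene name on the array, or the symbol of its RefSeq accession, was on the list. Of the 46, 44 had at least 1 probe on the array, with 62 probes in all, and Xaf1 and Parp14 had none. The brightest probe of each gene stood for it, and 40 of these passed the filter on dim probes, out of 21098 genes that passed it on the whole array. The brightest probes of Dhx58, Oas1g, Oas2 and Oas3 did not pass, so no level change is given for them. All mice were of the FVB background, and each of 6 arrays set a red-labelled (Cy-5) ventral prostate pool against a green-labelled (Cy-3) pool of wild type ventral prostates aged 2.5 months, called young wild type below. The red pool came from 15-LOX2 transgenic mice of line fl26 aged 2.5 months, from mice of line svb9 that carry the splice variant 15-LOX2sv-b, also aged 2.5 months, or from wild type mice aged 15 months, called old wild type, with 2 arrays for each group. 15-LOX2 is 15-lipoxygenase 2, an enzyme that oxidises arachidonic acid. Each transgenic group is 1 line, and the promoter of the transgene is not given in the sources used here. The extraction notes describe pools of 3 mice and the series' design text combined lobes of 6 mice, which the files do not settle. The design text calls the duplicates independent sets of samples, and no source says if one green pool served several arrays. Red was always the named group, so in comparisons with young wild type a dye effect cannot be told apart from the group, whereas it cancels between fl26 and svb9.

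Interferons are secreted proteins that warn cells of infection. Type I interferons bind the receptor pair Ifnar1 and Ifnar2 and, through the kinases Jak1 and Tyk2, lead to a complex containing Stat2 and Irf9 that binds the interferon-stimulated response element (ISRE) in promoters of antiviral genes. Type II interferon, the product of Ifng, acts through Ifngr1 and Ifngr2 and leads mainly to binding at the gamma-activated sequence (GAS). Many of the induced genes are also expressed at a low level in tissues without infection, and several, such as Irf7, Stat2, Irf9 and Usp18, feed back on the pathway itself.

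Promoter stretches of 5 members are printed to show the element that ties many of them to this pathway. They are taken from RefSeq promoter windows of 250 bases before to 50 after each gene's start on GRCm38.p6, and capitals mark matches to the ISRE core searched here, GAAANNGAAA on either strand (TTTCNNTTTC on the strand shown when it lies on the other). Ifit1 on chr19:34640760-34640838 (plus strand), Isg15 on chr4:156200850-156200921 (minus strand), Bst2 on chr8:71537562-71537627 (minus strand) and Stat2 on chr10:128270251-128270310 (plus strand) are shown as members that were lower on both fl26 arrays. Gbp2 on chr3:142620579-142620638 (plus strand) is shown as one that was not.
Ifit1: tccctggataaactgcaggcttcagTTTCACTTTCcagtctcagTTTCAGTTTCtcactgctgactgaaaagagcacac
Isg15: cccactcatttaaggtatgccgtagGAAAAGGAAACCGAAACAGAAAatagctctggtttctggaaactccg
Bst2: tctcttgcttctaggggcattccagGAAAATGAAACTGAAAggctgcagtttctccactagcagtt
Stat2: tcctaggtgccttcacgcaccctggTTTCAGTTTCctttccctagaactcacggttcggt
Gbp2: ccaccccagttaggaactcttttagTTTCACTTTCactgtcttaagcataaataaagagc
The matches in Isg15 and Bst2 overlap each other, so their capitals run on. In Ifit1 the matches begin 104 and 85 bases before the start, and in Gbp2 the single match begins 59 bases before it. Of the 34 members with a window, 18 (52.9%) held the ISRE core, against 3.99% of all 27025 genes with a window and 3.44% of all 32851 windows. The GAS core TTCNNNGAA, which reads the same on both strands, was in 11 of the 34 (32.4%), against 9.55% of all genes. Irf7, Oasl2 and Ifi44 held no match to the ISRE core in these windows. A match describes letters only and shows no binding.

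How well the members were measured differed between the groups. Of 41174 probes, 3218 to 27832 were well above background in the red channel of an array, fewest on old wild type array 1, and 24835 to 30381 in the green. The red signal of the 40 members was well above background on both arrays for 31 in fl26, for 28 in svb9 and for only 4 in old wild type. It was so on neither array for 0 of them in fl26, for 1 in svb9 and for 14 in old wild type. The 9 measured in red on only 1 fl26 array were Oasl1, Ddx58, Zbp1, Irf7, Isg15, Mx1, Mx2, Rsad2 and Gbp3. In svb9 there were 11 such genes, the same apart from Zbp1, which was above background on neither array, and with Ifit1, Ifit2 and Ifit3 added. None of the 40 was saturated. The tissue label matched its markers: 8 or 9 of 9 ventral prostate luminal genes, among them Pbsn, Sbp and Spink1, were well above background in red on each array. Only 2 arrays per group limit the precision throughout.

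In fl26 prostates most interferon response genes were below young wild type, and the leading ones were Rtp4, Oasl2, Ifi44, Ifit1, Usp18, Bst2, Irf7 and Mx2, mostly antiviral effectors and parts of the type I interferon feedback loop. Of the 40, 36 had a mean log2 ratio (red over green) below 0, against 48.9% of all genes. The median was -0.16, against 0.00 for all genes. However, with each array centred on its median in place of loess, 20 of the 40 were below 0. The members' median was then 0.0031 and that of all probes 0.0967. With loess, the members' median log2 ratio was -0.33 on array 1 and -0.12 on array 2. Array 1 had 15 of the 40 below -0.5, where 1.23% of all genes lay, and array 2 had 3 of the 40 below -0.5, where 4.72% of all genes lay. Below 0 on both arrays were 22 of the 40 members, 55% of them, against 25.6% of all genes. Above 0 on both were 2 members, against 28.4% of all genes. In limma's test 0 of the 40 were called at an adjusted p of 0.05, where 0.0503% of all probes were called. At an unadjusted p of 0.05, 11 were lower, against 4.74% of all genes. At this p 0 were higher, against 1344 of all 21098 genes. Without array 1, 27 of the 40 were below 0.

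**Figure D1:**
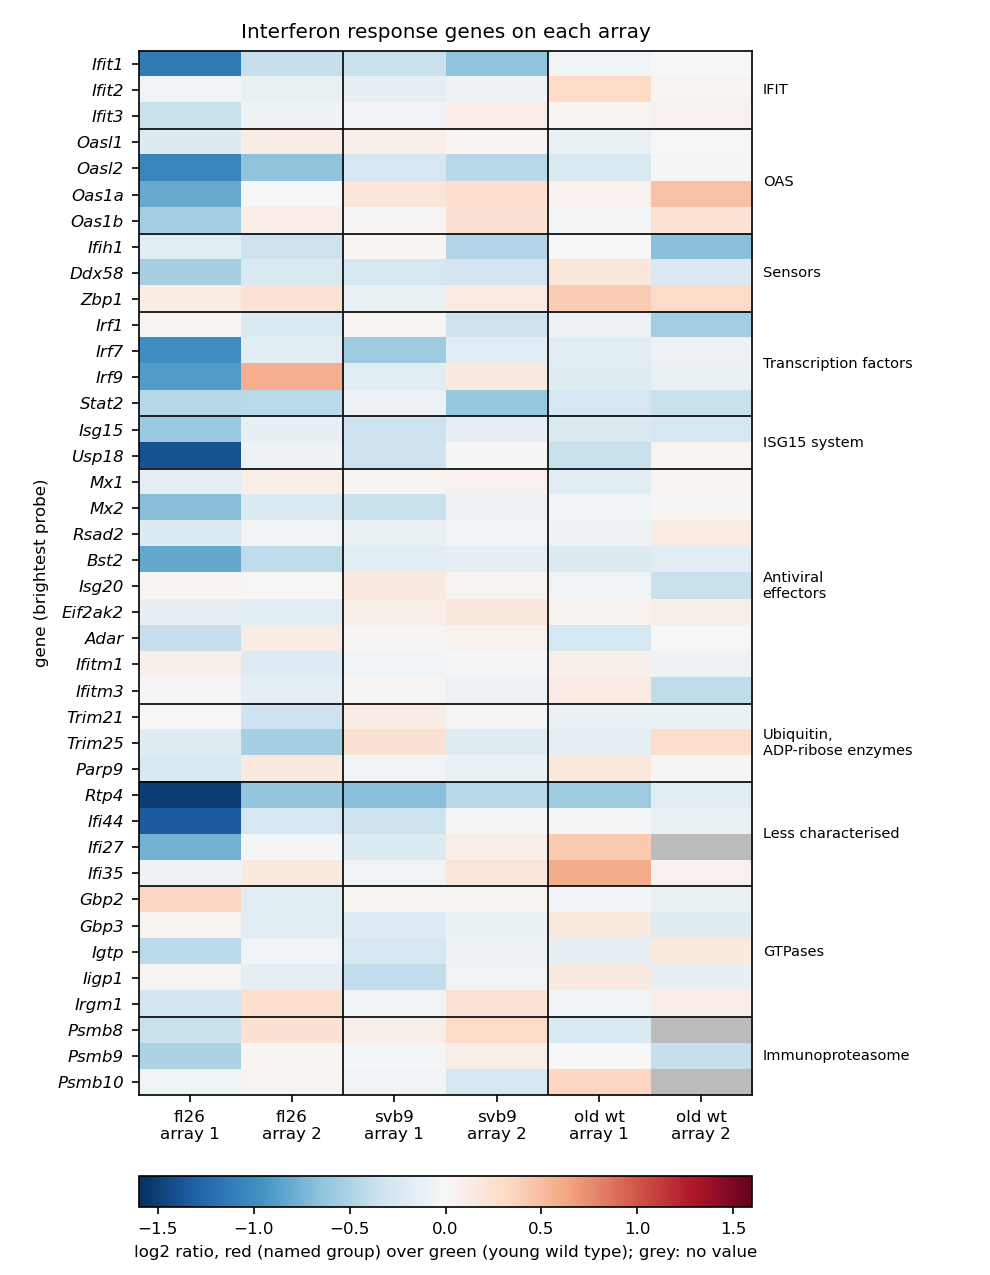
Log2 ratio of each of the 40 tested genes (rows, grouped by role) on each of the 6 arrays (columns), as red group over green young wild type, with blue lower, red higher and grey without a value. The strongest blue is on fl26 array 1, down to -1.51 for Rtp4, while the GTPases and the immunoproteasome rows are mixed. Centred on array medians in place of loess, 20 of the 40 fl26 means lie below 0. The members' fl26 median is then 0.0031 and that of all probes 0.0967.

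Rtp4, an interferon-induced chaperone of receptor transport, had log2 ratios of -1.51 and -0.62 in fl26. Its mean was -1.07 ± 0.21 (limma's SE, n = 2 arrays), 2.10-fold lower than young wild type (limma adjusted p = 0.249). Both fl26 arrays lay below young wild type, as did every svb9 and old wild type array. On old wild type array 1 the red signal of Rtp4 was not well above background. Each ± given here is limma's SE, which pools the spread over all groups and moderates it across probes. It is therefore not the gap between a gene's 2 arrays, which the single values show. Ifi44, an interferon-induced cytoplasmic protein, was at -1.33 and -0.27, a mean of -0.80 ± 0.23 (limma adjusted p = 0.346). The gap between its arrays was larger than the second array's own distance from 0, and its other probe was too dim to test. Ifi27, a small mitochondrial protein induced by type I interferon, was at -0.75 and -0.03, and Ifi35 at -0.08 and 0.16, so in this group of less characterised genes 3 of 4 means were below 0.

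The ISG15 system attaches a ubiquitin-like protein to other proteins, and Usp18 takes it off again and also brakes the type I receptor. Usp18 was at -1.40 and -0.08 in fl26, a mean of -0.74 ± 0.29 (limma adjusted p = 0.476). Nearly all of that mean came from array 1. Isg15, the ubiquitin-like protein itself, was at -0.60 and -0.13, below young wild type on both arrays.

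Among the IFIT genes, which encode proteins that bind viral RNA lacking the host cap marks, Ifit1 was at -1.13 and -0.36 in fl26, a mean of -0.75 ± 0.18 (limma adjusted p = 0.297). Ifit2 was at -0.07 and -0.12, and Ifit3 at -0.36 and -0.08. All 3 were below 0 on both arrays, but Ifit1 stood apart from the other two. These genes have close copies in the mouse, so which copy a probe reads is uncertain.

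The OAS genes encode sensors of double-stranded RNA that make 2'-5' oligoadenylates, and the OAS-like genes encode related proteins. Oasl2 was at -1.05 and -0.64 in fl26, a mean of -0.84 ± 0.12 and 1.79-fold lower, with the lowest adjusted p of the list (limma adjusted p = 0.159). It was clearly below 0 on both arrays. Oas1a was at -0.81 and 0.00 and Oas1b at -0.56 and 0.10, so only array 1 was low for these. Oasl1 was at -0.21 and 0.12. Oas1a and Oas1g are near-identical copies, which one probe may not separate.

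Of the transcription factors, Irf7, which amplifies type I interferon production, was at -0.999 and -0.16 in fl26, a mean of -0.58 ± 0.20 (limma adjusted p = 0.417). Stat2, the subunit that brings the transactivation domain to the ISRE complex, was at -0.46 and -0.44, a mean of -0.45 ± 0.13 (limma adjusted p = 0.330). Its arrays lay closer together than those of Irf7. Irf9, the DNA-binding subunit, was at -0.90 and 0.58, opposite signs, and its dimmer probe was at -0.28 and 0.00. Irf1, which responds mainly to type II interferon, was at 0.03 and -0.23.

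The sensors of viral RNA were mixed. Ddx58, which encodes RIG-I, was at -0.53 and -0.25 in fl26, a mean of -0.39 ± 0.12 (limma adjusted p = 0.369), but its second tested probe was at -0.16 and 0.06. Ifih1, which encodes MDA5, was at -0.18 and -0.35, with a second probe at 0.05 and -0.23. Zbp1, a sensor of Z-form nucleic acid, was above 0 on both arrays, at 0.12 and 0.23.

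Bst2, the tetherin that holds budding virus at the membrane, led the remaining antiviral effectors at -0.82 and -0.41 in fl26, a mean of -0.62 ± 0.11 (limma adjusted p = 0.212). Mx2, a dynamin-like GTPase, was at -0.68 and -0.23, a mean of -0.46 ± 0.13 (limma adjusted p = 0.327). Its relative Mx1 was at -0.15 and 0.09. Rsad2, the viperin enzyme that makes a chain-terminating nucleotide, was at -0.22 and -0.05, and Eif2ak2, the kinase PKR, at -0.13 and -0.17. The other 4 of this role (Isg20, Adar, Ifitm1 and Ifitm3) had means from -0.13 to 0.02. In the ubiquitin and ADP-ribose enzymes, Trim25, a ligase of the RIG-I pathway, was at -0.19 and -0.53, Trim21 at -0.01 and -0.33 and Parp9 at -0.25 and 0.15.

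The GTPases and the immunoproteasome were mixed between the arrays. Of the GTPases that attack vacuoles of intracellular pathogens, Gbp2 was at 0.33 and -0.19 in fl26 and Igtp at -0.43 and -0.07, and the 5 had a median of -0.05, with 1 of them below 0 on both arrays. In the immunoproteasome, whose subunits replace the constitutive ones to shape peptides for MHC class I, Psmb8 was at -0.35 and 0.24, Psmb9 at -0.51 and 0.03 and Psmb10 at -0.07 and 0.04, with a median of -0.35 on array 1 and 0.04 on array 2. A second probe of Psmb8 disagreed on array 2, at -0.47 and -0.42. The constitutive counterparts Psmb5, Psmb6 and Psmb7 had a median of -0.26.

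**Figure D2:**
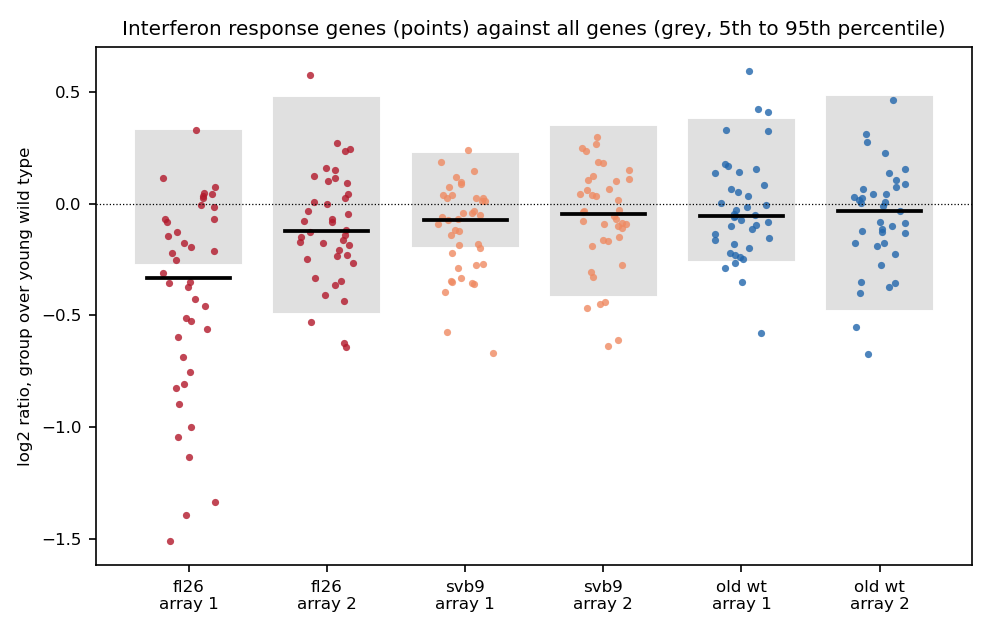
Log2 ratio of the interferon response genes (points) on each array, group over young wild type, with their median (black bar) and the 5th to 95th percentile of all tested genes (grey). On fl26 array 1 the median of -0.33 lies below the grey box, and on the other arrays the medians run from -0.12 to -0.03. Centred on array medians in place of loess, the fl26 median of the members is 0.00 and that of all probes 0.10.

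Set beside the printed promoters, the ISRE core was in 13 of 18 members with a window that were below 0 on both fl26 arrays, 72.2%, and in 3 of the 13 other tested members with a window, 23.1%. For the GAS core the shares were 33.3% and 38.5%. Ifit1, Isg15, Bst2 and Stat2 are in the first set with the ISRE core, whereas Irf7, Oasl2 and Ifi44 are in it without one, and Gbp2 carries one and is not in it. The first set was formed by sign alone from these same data, after loess and by the brightest probe. With median centring, 20 of the 40 fl26 means were below 0. Of genes with the core, second tested probes of Ddx58, Ifih1 and Rsad2 were not below 0 on both fl26 arrays, whereas that of Irgm1 was. Of genes without it, that of Trim25 was not, whereas those of Irf9, Isg20 and Psmb8 were. Some of its members with the ISRE core lay near 0 on 1 fl26 array, such as Oas1a at -0.0012, Trim21 at -0.0057 and Ifitm3 at -0.0132. These counts describe one list and received no test, so a link of the core to the change was not tested. Rtp4, Usp18 and Mx2 have no promoter window here.

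In svb9 prostates the same list lay closer to young wild type, with Rtp4, Ifit1, Irf7, Oasl2, Stat2, Ddx58, Isg15 and Iigp1 furthest from it, all of them lower. Of the 40 means 24 were below 0 and the median was -0.07, against 49.8% and 0.00 for all genes. On the single arrays the members' median was -0.07 and -0.05. Below 0 on both arrays were 18 of the 40, against 27.2% of all genes. Above 0 on both were 9 members, against 29% of all genes. limma called 0 of the 40, where 0% of all probes were called, with a smallest adjusted p of 0.980. At an unadjusted p of 0.05, 5 were lower, against 2.46% of all genes. At this p 0 were higher, against 520 of all 21098 genes.

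Rtp4 was at -0.67 and -0.44 in svb9, a mean of -0.55 ± 0.21 (limma's SE, n = 2 arrays). Ifit1 was at -0.36 and -0.64, a mean of -0.50 ± 0.18. Both genes were below young wild type on both arrays, and their means by more than 2 standard errors. Neither was called (limma adjusted p = 0.980 for each). Ifit1, like Irf7, Ddx58 and Isg15 below, was well above background in red on only 1 svb9 array. Oasl2 was at -0.27 and -0.45, Irf7 at -0.57 and -0.17 and Stat2 at -0.09 and -0.61. Ddx58 was at -0.29 and -0.30, Isg15 at -0.35 and -0.15 and Iigp1, a GTPase of the vacuole defence, at -0.40 and -0.07. Other genes that were low on fl26 array 1 were nearer to 0 on the svb9 arrays, with Usp18 at -0.33 and 0.02, Ifi44 at -0.35 and -0.03 and Bst2 at -0.18 and -0.16. Oas1a and Oas1b were above 0 on both svb9 arrays, at 0.19 and 0.27 and at 0.02 and 0.25.

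Between the lines, 32 of the 40 members had a lower mean log2 ratio in fl26 than in svb9, and 21 of the 40 with arrays centred on their medians. The median difference with that centring was -0.0232, against 0.0923 for all probes. With loess it was -0.11, against 0.00 for all genes. limma called 0 of the 40 and 0% of all probes for this difference, with adjusted p = 1, and 3 members were lower at an unadjusted p of 0.05, as were 1.16% of all genes. Both fl26 arrays lay below both svb9 arrays for 7 of the 40, against 11.6% of all genes. The reverse held for 0 members, against 12.9% of all genes. The 7 were Oas1a, Oasl2, Bst2, Trim25, Eif2ak2, Ifit3 and Isg20, each by its brightest probe. The second probe of Trim25 did not show this order, at 0.09 and -0.18 in fl26 and at -0.09 and -0.34 in svb9, nor did that of Isg20, at -0.02 and -0.28 in fl26 and at 0.10 and -0.09 in svb9. The largest differences of means were in Oas1a at -0.63 ± 0.27, Ifi44 at -0.61 ± 0.33 and Usp18 at -0.58 ± 0.41. Next came Rtp4 at -0.51 ± 0.30 and Oasl2 at -0.48 ± 0.17 (limma's SE of a difference of 2 against 2 arrays). Without fl26 array 1 the median difference was 0.00, with 21 lower and 19 higher, and the difference of Usp18 was 0.08.

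fl26 array 1 and svb9 array 1 carry the same extraction date in their file headers, and their green channels correlated at r = 0.997 across probes, which are not independent replicates. The green channels of fl26 array 2 and svb9 array 2, from different dates, also correlated at 0.997, and those of fl26 array 2 and old wild type array 1, from one date, at 0.983. Within the date of the first pair 33 of 40 members were lower in fl26 than in svb9, with a median difference of -0.25, and 10 differed by more than 0.5 downwards, where 1.04% of all genes did. By the median, the difference lay in the red channel. There the members' normalized log2 levels were lower by a median of 0.21 in fl26, down to a difference of -0.997. In red 8 members were below -0.5, against 1.13% of all genes. In green the median difference was 0.01 and 0 members were below -0.5, where only 0.0476% of all genes lay. Single members departed from this. Eif2ak2 was higher in fl26 in both channels, at 7.83 against 7.66 in red and 7.96 against 7.57 in green. Trim25 was at 8.84 against 9.02 in red and 9.04 against 8.78 in green.

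Rtp4 shows the pattern in levels: its log2 intensity in red was 7.53 on fl26 array 1 and 8.40 on svb9 array 1, and in the young wild type green channel 9.05 and 9.07 on those arrays. Usp18 had 5.95 on fl26 array 1 and 6.92 on svb9 array 1 in red, with 7.34 and 7.25 in the young wild type green. Young wild type green levels were lower on the second arrays, where Rtp4 read 8.56 beside fl26 and 8.60 beside svb9, and Usp18 6.77 and 6.75. On those second arrays the red levels of the members differed between fl26 and svb9 by a median of -0.05, against -0.02 for all genes. In green the median difference was -0.01 for the members and -0.03 for all genes.

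**Figure D3:**
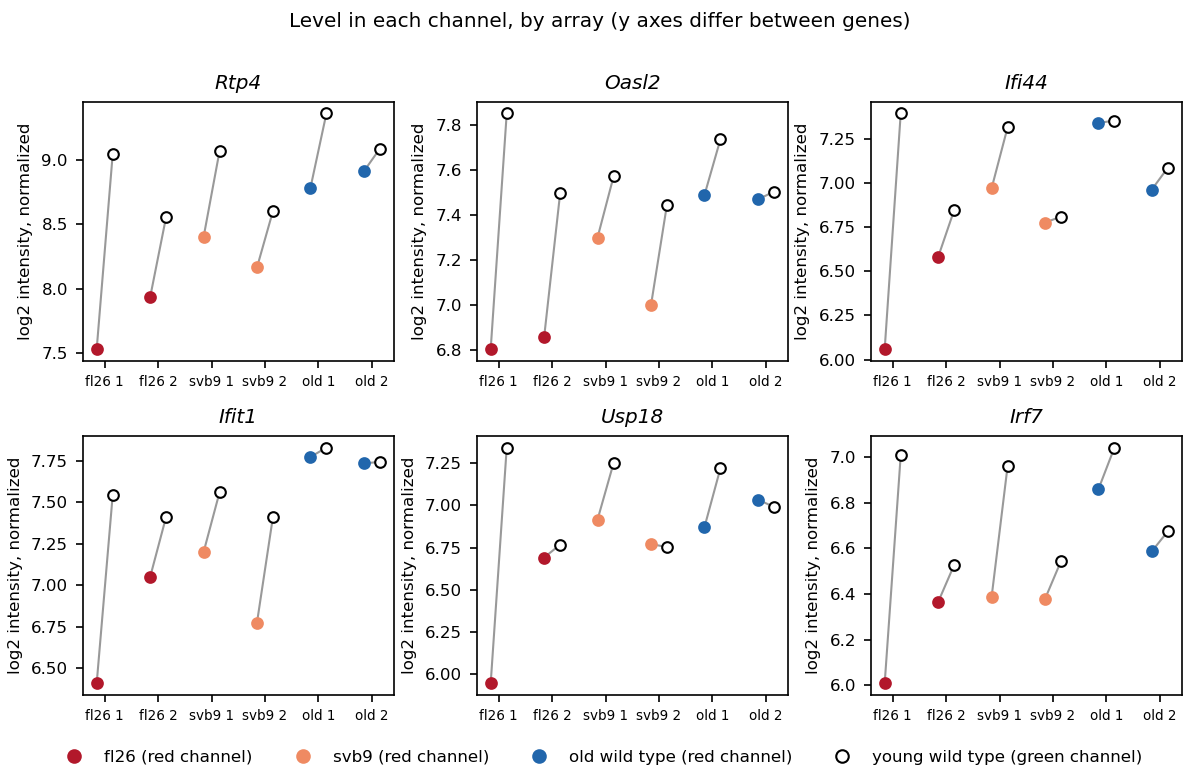
Normalized log2 intensity of 6 genes in the red channel (filled, the named group) and the green channel (open, young wild type) of each array, joined per array. On fl26 array 1 the red level of Rtp4 is 7.53 against 9.05 for young wild type, and the red levels of Ifi44, Ifit1, Usp18 and Irf7 are also the lowest of their panels there.

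In old wild type prostates 26 of the 40 genes were well above background in red on at least 1 array, and the members' means lay on both sides of 0. Of the 40 means 25 were below 0 and the median was -0.04, against 54.3% and -0.01 for all genes, but with array medians in place of loess 38 of the 40 were below 0 with a median of -0.95, while the median of all probes was -0.38. Below 0 on both arrays were 14 of 37 members with 2 values, against 32.8% of all genes. limma called 0 of the 40 and 0% of all probes, and 1 member was lower and 1 higher at an unadjusted p of 0.05, against 4.68% of all genes that were lower and 7.66% that were higher. Rtp4 was at -0.58 and -0.18, Stat2 at -0.27 and -0.36, Ifih1 at -0.01 and -0.67 and Irf1 at -0.10 and -0.55. Of these, Irf1 was well above background in red on both arrays and the other 3 on array 2 only. Oas1a was at 0.07 and 0.46 and Ifi35 at 0.60 and 0.07, each well above background in red on array 2 only. The values of these genes on array 1, such as the -0.58 of Rtp4 and the 0.60 of Ifi35, therefore rest on dim red signal. Isg15 and Zbp1 were not well above background in red on either old wild type array, so no fold is given for them, although the probe of Zbp1 had the smallest adjusted p of the list (limma adjusted p = 0.237).

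The further genes of the pathway lay on both sides of 0 in fl26. Of 71 further genes of the pathway 59 were tested, 24 below and 35 above 0 in fl26, with a median of 0.02, and limma called 0 of them in each comparison, with 9 at an unadjusted p of 0.05 in fl26, where 11.1% of all genes were. In svb9 28 were below 0 and 31 above, and in old wild type 35 below and 23 above.

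The receptor chains were on both sides of 0. Ifnar1 was at 0.19 and 0.23 and Ifnar2 at 0.11 and 0.39 in fl26, the type I chains, and Ifngr1 was at 0.24 and -0.24 and Ifngr2 at -0.24 and -0.36, the type II chains. Of the kinases, Jak1 was at 0.16 and 0.45 and Tyk2 at -0.17 and -0.08.

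The feedback inhibitor Socs1 was at 0.09 and -0.05 in fl26, and Irf3, the factor that starts type I interferon transcription, at 0.08 on array 1 with no value on array 2. Of 6 interferon genes 3 were tested, with means from -0.10 to 0.02, and Ifnb1 was too dim to test. Among 29 other interferon-induced genes 13 were below 0 and 16 above. Cxcl10, a chemokine for T cells, was at -0.26 and -0.33, and Tap1, a peptide transporter for MHC class I, at -0.37 and 0.13. B2m, the light chain of MHC class I, was at -0.24 and 0.81, with its probe saturated on 1 fl26 array. The furthest of the 29 from 0, picked out after the values were seen, were Sp100, a nuclear body protein, at -0.87 and -0.78 and Ifi205, of the HIN200 family of nuclear DNA-binding proteins, at 0.54 and 0.39.

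**Figure D4:**
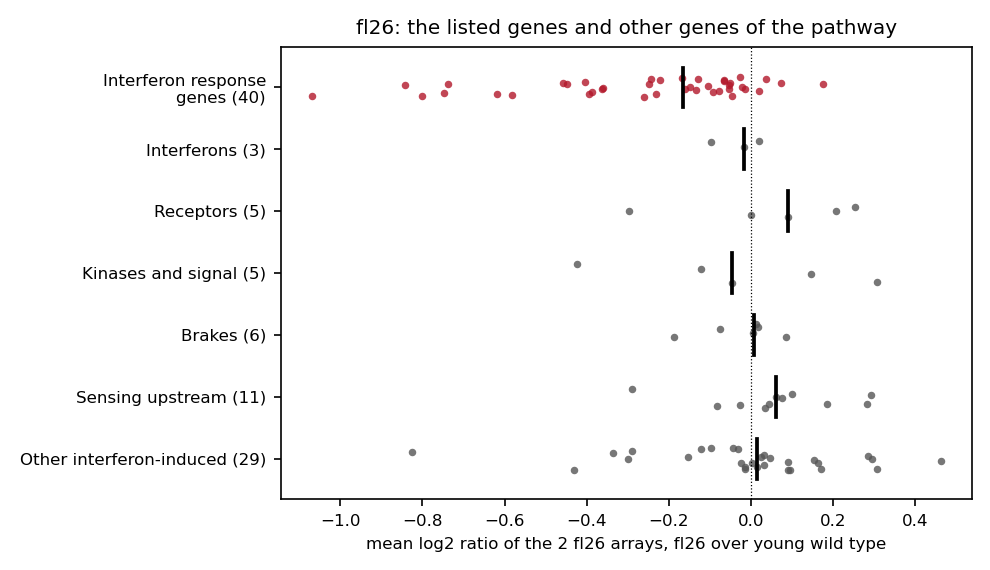
Mean log2 ratio of the 2 fl26 arrays over young wild type for each tested gene (points), for the interferon response genes (top row) and the other lists of the pathway, with the number of genes in brackets and the median as a bar. The members' median is -0.16 and that of the other interferon-induced genes 0.02. With array medians in place of loess, the members' median is 0.00 and that of all probes 0.10.

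In bulk tissue, fewer cells of a type and less RNA per cell cannot be told apart, and markers of other cells were mostly above young wild type on fl26 array 1. The median of 7 endothelial genes was 0.44 on array 1 and -0.13 on array 2, that of 8 stromal genes 0.36 and -0.13, and that of 5 basal genes 0.43 and 0.26. Of 10 macrophage genes tested 10 were above 0 on array 1 and 5 on array 2, with medians of 0.32 and 0.00. The summed level of the macrophage markers was 3372 and 2966 in fl26 red, against 2011 and 2445 in young wild type green on the same arrays. Much of that difference was Lyz2, a lysozyme and the brightest of them, at log2 ratios of 1.11 and 0.47. Without it the sums were 1400 and 1148 in fl26, against 1097 and 1130 in young wild type. The pan-leukocyte gene Ptprc was at 0.33 and -0.10 in fl26, and limma called 0 marker genes. Of 9 T and NK cell genes 8 were above 0 with a median of 0.04. Of the dendritic markers 4 of 7 passed the filter, and 1 of these was above 0 on fl26 array 1 and 3 on array 2. Of 5 B and plasma cell genes 3 were above 0 on array 1 and 4 on array 2. Of the 9 luminal genes 6 had a mean below 0 in fl26, but the arrays differed in sign. On array 1, 1 of the 9 was above 0 and on array 2 7 were, with medians of -0.33 and 0.28. In svb9 the luminal medians were -0.29 and 0.38. Of the luminal probes 5 were saturated on at least 1 fl26 array, among them Sbp and Spink1 on both, so no summed level is given for them. The part of these cell types in the members' values was not tested.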

How the data were processed

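The data came from 6 Agilent whole mouse genome arrays with 2 colours. Per the file headers, the scanner files were made with Feature Extraction A.7.5.1 and hold spot intensity and local background in each channel, quality flags, and a log10 ratio of red over green that the software background-subtracted and dye-normalized with linear and LOWESS steps. The deposited series table holds the same log10 ratios, rounded. Here the spot mean intensity was corrected with normexp (offset 50) against the deposited local background and normalized by loess within each array, giving log2 ratios of red over green, and channel levels were scaled between arrays with Aquantile. Control and outlier spots were left out, and spots of one probe averaged. Older gene names were brought up to date through RefSeq accessions, which matched 20716 probes. Probes well above background in 1 channel on both arrays of a group were tested, 27858 of 41174, with limma 3.58.1 in R 4.3.3: group means over all 6 arrays, 2-sided, Benjamini-Hochberg over all tested probes, threshold 0.05. With 2 arrays per group, p-values and standard errors rest on the spread between duplicate arrays, pooled over all groups and moderated across probes. The members and lists were chosen with earlier results of these data known. The genes named were those called, the 8 furthest from 0 with 1 sign on both arrays in each comparison, the 5 with the largest difference between the lines, and a set fixed by role, apart from a gene that is not reported here. The test was checked on simulated data. Alternatives were background correction, median centring, the software's ratios, filters, outlier and saturated spots, extraction date, replicate number, the mean over probes and leaving out each array.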

Additional observations from a re-analysis of the deposited data

Results flagged for a closer look

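Oas1a, of the 2'-5' oligoadenylate synthetases, was at or below 0 on both fl26 arrays, at -0.81 and 0.00 on the log2 scale, and above 0 on both arrays of the other groups. On old wild type array 1 its red signal was not well above background. The mean differed by -0.67 between fl26 and old wild type (-0.40 and 0.27), a difference that was not tested. Between fl26 and svb9 it differed by -0.63 (-0.40 and 0.23), which limma did not call (adjusted p = 1). The second fl26 array lay almost on 0, so its sign carries little, and the probe may also read Oas1g. Groups of 2 arrays are too small for a check of single outlying arrays.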

How the results depend on the processing

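For fl26 against young wild type, 0 members were called under each alternative except the replicate block, with which limma called 4, all lower: Rtp4 (adjusted p = 0.0135), Oasl2 (0.0166), Bst2 (0.0228) and Mx2 (0.0393), beside 3.59% of all probes. The labels do not say that the replicate numbers pair arrays, and same-numbered arrays' deviations correlated at 0.586 (fl26 and svb9), 0.331 (fl26 and old wild type) and 0.166 (svb9 and old wild type). In the other comparisons 0 members were called under every alternative, the replicate block included. The fl26 median of the members was 0.0031 with median centring, below the 0.0967 of all probes, was -0.2924 with the software's ratios, and ran from -0.3322 to -0.1217 when an array was left out. Sizes and order of single genes in fl26 also moved with the software's ratios. Mx2 was then at -1.37, Ifi44 at -1.36, Usp18 at -1.25, Rtp4 at -1.22 and Irf7 at -1.14, so Rtp4 was no longer furthest from 0. The svb9 median was -0.0944 with the software's ratios, -0.0389 with the strict filter, -0.0388 with no filter, -0.0223 with extraction date as a term, and from -0.0713 to -0.046 when an array was left out. The old wild type median was -0.9493 with median centring (all probes -0.3756), -0.251 with the software's ratios, -0.0685 with the strict filter and -0.0979 with extraction date. In old wild type, median centring turned Ifi35 to -0.8011 and Oas1a to -1.0446. Between fl26 and svb9 the members' median difference was -0.2296 with the software's ratios and -0.2167 with extraction date as a term. With median centring it was -0.0232, and that of all probes was 0.0923. In that comparison Usp18 turned to 0.0814 without fl26 replicate 1, its highest value with an array left out, and the lowest was -1.238. The cause of these moves was not tested. Dim red signal limits the old wild type values in particular.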
